A study of Mus musculus with 6 samples.

Results

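Transcripts of 10 human genes that encode cytosolic aminoacyl-tRNA synthetases were followed in A375 cells that had received CRISPR guides against YAE1, ABCE1 or control sequences. The genes were taken by identifier from the deposited table of 62492 gene identifiers, and they are AARS1, CARS1, EPRS1, GARS1, IARS1, MARS1, NARS1, SARS1, TARS1 and WARS1. They cover only some of the cytosolic synthetases. The rule that lists them uses no measured value, but the genes were chosen with earlier results of these data known. A375 is an established line of human melanoma cells. Per the labels, cells of every group, controls included, were transduced with lentivirus carrying Cas9 and a guide, selected with puromycin at 10 µg/mL, and harvested 7 days after selection. The 3 groups of 2 libraries each are titled sgYAE1 (guides against YAE1), sgAbce1 (guides against ABCE1) and sgCon (guides against LacZ or Luciferase, genotype given as wild type). Nothing in the labels tells whether paired libraries of a group used distinct guides or were grown separately, and p-values therefore reflect only library-to-library spread, possibly technical. The genotype field of the second knockout libraries reads Yae2 and Abce2, and the groups were taken from the titles.

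Aminoacyl-tRNA synthetases join each amino acid to its own transfer RNA, the step that fixes the genetic code before a tRNA reaches the ribosome. They fall into class I and class II, which have unrelated catalytic folds. In animal cells several of them sit together in a multi-synthetase complex with scaffold proteins, while others are free in the cytosol. Many cytosolic synthetase genes are known targets of ATF4, the transcription factor of the integrated stress response, which is made when translation initiation is curbed or amino acids run short. ABCE1 is an iron-sulfur ATPase that splits ribosomal subunits after termination, and YAE1 works with LTO1 to load ABCE1 with that cluster. The series title concerns the LTO1 complex, nonsense-mediated decay and MHC class I.

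The table gives FPKM, that is fragments divided by the length of the gene model and by the fragments of the library. Levels of different genes therefore also depend on the gene-model lengths used, which are not stated. The totals worked out from the values were 15713011 to 18399718 assigned fragments per library, and each synthetase had 1260 to 9905.5 fragments in each library, a counting error of 1.00% to 2.82%. Across the 12578 genes tested, log2 values correlated at r = 0.992 to 0.994 within groups and at r = 0.942 to 0.980 between groups. The chi-square per gene between replicates was 5.896 with YAE1 guides, 2.944 with ABCE1 guides and 2.596 with control guides. By this measure the YAE1 replicates differed most from each other. The test pools the spread of all groups, so a gene has the same error in both knockouts. Errors and p-values with YAE1 guides may therefore look firmer than they are. The 10 synthetases all had a mean of at least 1 FPKM and were all among the 12578 genes tested. The table pairs no identifier with a symbol, so the targeted genes and the melanoma markers were not analysed here and neither the knockouts nor the cell type was checked. In bulk RNA, fewer cells of a type and less RNA per cell cannot be told apart.

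Transcripts of CARS1, WARS1 and SARS1 were higher with guides against either gene than with control guides. TARS1 was also higher in both knockouts, by more with ABCE1 guides than with YAE1 guides, and GARS1 was higher with ABCE1 guides. AARS1 was lower with ABCE1 guides. EPRS1, IARS1 and NARS1 passed the test in neither knockout, and MARS1 passed it with YAE1 guides alone, with a small rise. The calls for AARS1 with ABCE1 guides and for MARS1 and TARS1 with YAE1 guides were each lost in some alternative fits given below. The changes called were between 0.858-fold and 1.67-fold in mean FPKM. Of all genes tested, 37.5% were called higher with ABCE1 guides and 34.2% with YAE1 guides. The share called higher in both knockouts was not worked out, and both are set against the same control libraries.

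**Figure D1:**
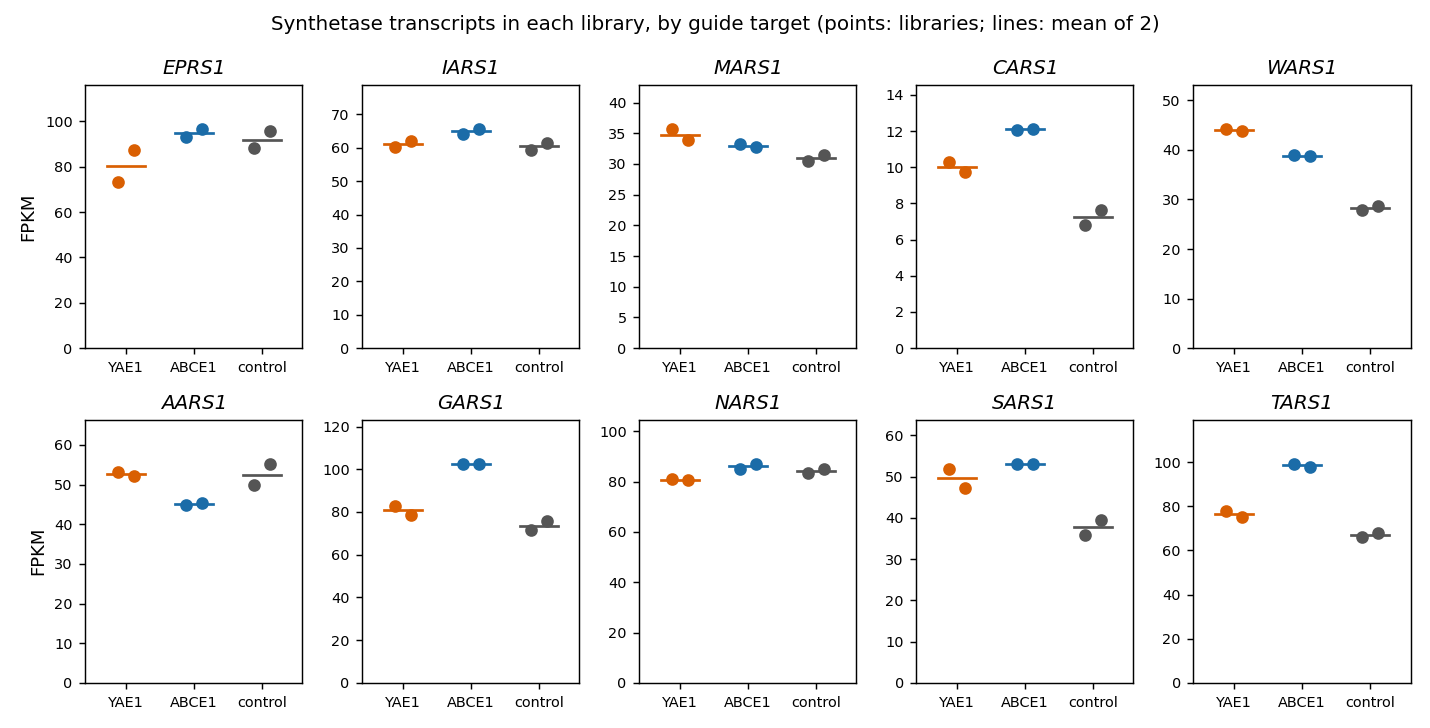
FPKM of each synthetase in each of the 6 libraries (points, y axis from 0) with the mean of the 2 libraries of a group (lines), for YAE1, ABCE1 and control guides. CARS1, WARS1, SARS1, TARS1, GARS1 and MARS1 lie above both control libraries in all 4 knockout libraries. Of all tested genes, 50.6% lie wholly above the controls with ABCE1 guides and 49.8% with YAE1 guides, each knockout taken alone. The share above the controls in both knockouts at once was not worked out. AARS1 lies lowest with ABCE1 guides, at 44.9 and 45.3 FPKM.

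Of the 10 genes, EPRS1, IARS1 and MARS1 encode enzymes of the multi-synthetase complex. EPRS1 (ENSG00000136628), which charges glutamate and proline tRNAs with a single polypeptide, had 73.3 and 87.5 FPKM with YAE1 guides, 92.9 and 96.7 FPKM with ABCE1 guides, and 88.4 and 95.6 FPKM with control guides. Both YAE1 libraries lay below the other libraries, but they differed from each other by 17.6% of their mean, the widest gap between replicates of any synthetase. The log2 difference from control was -0.20 ± 0.085 with YAE1 guides (SE, limma adjusted p = 0.095, 95% interval -0.40 to 0.0075). With ABCE1 guides it was 0.044 ± 0.085 (limma adjusted p = 0.69, 95% interval -0.16 to 0.25). The YAE1 difference of EPRS1 passed the test after centring each library on its median gene (-0.29, limma adjusted p = 0.023) and with voom on recovered fragments (limma adjusted p = 0.024). With quantile normalization it was -0.11 and did not pass (limma adjusted p = 0.35). The size of the difference depended on the YAE1 library kept, at -0.32 without YAE1 replicate 2 and -0.070 without YAE1 replicate 1.

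IARS1 (ENSG00000196305), the isoleucine enzyme, had 60.1 and 62.1 FPKM with YAE1 guides, 64.2 and 65.7 FPKM with ABCE1 guides, and 59.4 and 61.5 FPKM with control guides. The ABCE1 libraries lay above the controls and the YAE1 libraries overlapped them. Neither difference passed the test, with log2 differences from control of 0.014 ± 0.042 for YAE1 guides (95% interval -0.085 to 0.11, limma adjusted p = 0.80) and 0.10 ± 0.042 for ABCE1 guides (95% interval 0.0014 to 0.20, limma adjusted p = 0.077). The ABCE1 difference passed with quantile normalization (0.15, limma adjusted p = 0.030) and in a fit of the 4 libraries compared (0.049). MARS1 (ENSG00000166986), which charges initiator and elongator methionine tRNAs, had 35.7 and 33.8 FPKM with YAE1 guides, 33.2 and 32.8 FPKM with ABCE1 guides, and 30.5 and 31.4 FPKM with control guides. All 4 knockout libraries lay above the controls. MARS1 rose with YAE1 guides (log2 difference 0.16 ± 0.045, limma adjusted p = 0.023), whereas with ABCE1 guides the difference of 0.087 ± 0.045 did not pass (limma adjusted p = 0.14). The YAE1 call was lost without either control replicate (limma adjusted p = 0.13 and 0.069), without YAE1 replicate 1 (0.068), with no filter (0.057), with TPM (0.066) and after centring on the median gene (0.31). MARS1 did not pass between the knockouts, at a log2 difference of 0.074 ± 0.045 for YAE1 against ABCE1 guides (95% interval -0.034 to 0.18, limma adjusted p = 0.25).

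CARS1 and WARS1 are class I enzymes outside the complex. CARS1 (ENSG00000110619), the cysteine enzyme and the least abundant of the 10, had 10.3 and 9.75 FPKM with YAE1 guides, 12.1 and 12.1 FPKM with ABCE1 guides, and 6.82 and 7.64 FPKM with control guides. The 3 groups did not overlap, with ABCE1 libraries highest. CARS1 rose 1.39-fold in mean FPKM with YAE1 guides (log2 difference 0.42 ± 0.064, limma adjusted p = 0.0021) and 1.67-fold with ABCE1 guides (0.67 ± 0.064, limma adjusted p = 0.00022). WARS1 (ENSG00000140105), the tryptophan enzyme and also a gene known to be induced by interferon gamma, had 44.3 and 43.9 FPKM with YAE1 guides, 39.0 and 38.7 FPKM with ABCE1 guides, and 27.8 and 28.7 FPKM with control guides. Again no group overlapped another, but here the YAE1 libraries were highest. WARS1 rose 1.56-fold with YAE1 guides (log2 difference 0.62 ± 0.040, limma adjusted p = 8.4e-05) and 1.38-fold with ABCE1 guides (0.45 ± 0.040, limma adjusted p = 0.00018).

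The other 5 genes encode free class II enzymes. SARS1 (ENSG00000031698), which charges serine tRNA and the tRNA on which selenocysteine is made, had 52.0 and 47.3 FPKM with YAE1 guides, 53.2 and 53.2 FPKM with ABCE1 guides, and 35.9 and 39.5 FPKM with control guides. The knockout libraries all lay above the controls. SARS1 rose 1.32-fold with YAE1 guides (log2 difference 0.39 ± 0.064, limma adjusted p = 0.0028) and 1.41-fold with ABCE1 guides (0.49 ± 0.064, limma adjusted p = 0.00083). TARS1 (ENSG00000113407), the threonine enzyme, had 78.0 and 75.3 FPKM with YAE1 guides, 99.3 and 97.9 FPKM with ABCE1 guides, and 65.9 and 68.0 FPKM with control guides. The groups were fully separated, with the YAE1 libraries between the ABCE1 libraries and the controls. TARS1 rose 1.15-fold with YAE1 guides (log2 difference 0.19 ± 0.041, limma adjusted p = 0.0077) and 1.47-fold with ABCE1 guides (0.55 ± 0.041, limma adjusted p = 8.6e-05). The YAE1 call was lost after centring on the median gene (0.096, limma adjusted p = 0.12) and without control replicate 1 (0.17, limma adjusted p = 0.065).

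GARS1 (ENSG00000106105), whose gene supplies glycine enzyme to both the cytosol and the mitochondria, had 83.0 and 78.5 FPKM with YAE1 guides, 102 and 103 FPKM with ABCE1 guides, and 71.5 and 75.8 FPKM with control guides. The order of the groups matched that of TARS1, without overlap. GARS1 rose 1.39-fold in mean FPKM with ABCE1 guides (difference on the log2 scale 0.47 ± 0.048, limma adjusted p = 0.00027). With YAE1 guides its difference of 0.13 ± 0.048 did not pass (95% interval 0.017 to 0.24, limma adjusted p = 0.057), and it passed with quantile normalization (0.19, limma adjusted p = 0.0071), with voom (0.040), under a stricter filter of 5 FPKM (0.048) and without YAE1 replicate 2 (0.17, limma adjusted p = 0.032). AARS1 (ENSG00000090861), the alanine enzyme, had 53.2 and 52.1 FPKM with YAE1 guides, 44.9 and 45.3 FPKM with ABCE1 guides, and 49.8 and 55.3 FPKM with control guides. The YAE1 libraries fell inside the range of the controls, which differed by 10.5% of their mean, and the ABCE1 libraries lay below every other library. AARS1 fell to 45.1 ± 0.31 FPKM with ABCE1 guides, against 52.5 ± 3.91 FPKM with control guides (SD, n = 2 each), a log2 difference of -0.21 ± 0.056 (limma adjusted p = 0.015). That call did not hold when ABCE1 replicate 1 (limma adjusted p = 0.074) or ABCE1 replicate 2 (0.061) was left out, without control replicate 2 (-0.14, limma adjusted p = 0.090), and when low genes were left unfiltered (0.059). With YAE1 guides the log2 difference of AARS1 was 0.0056 ± 0.056 (95% interval -0.13 to 0.14, limma adjusted p = 0.94).

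NARS1 (ENSG00000134440), the asparagine enzyme, had 81.0 and 80.6 FPKM with YAE1 guides, 85.0 and 87.2 FPKM with ABCE1 guides, and 83.5 and 84.9 FPKM with control guides. Its 6 libraries spanned the narrowest range of the 10 genes relative to level, although the groups did not overlap. Its log2 difference from control was -0.058 ± 0.037 with YAE1 guides (95% interval -0.15 to 0.031, limma adjusted p = 0.23) and 0.032 ± 0.037 with ABCE1 guides (95% interval -0.057 to 0.12, limma adjusted p = 0.49). The ABCE1 difference of NARS1 passed with quantile normalization (0.12, limma adjusted p = 0.026), and its YAE1 difference passed with TPM (-0.11, limma adjusted p = 0.040).

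With ABCE1 guides 5 of the 10 synthetases rose (CARS1, WARS1, SARS1, TARS1 and GARS1), 1 fell (AARS1) and 4 did not pass the test. These 4 were NARS1 and the 3 listed genes of the multi-synthetase complex, and of them IARS1 and NARS1 passed with quantile normalization. Over all 12578 genes the same test called 37.5% higher and 20.4% lower, so many genes of any kind were called in this comparison. The median log2 difference over the 10 synthetases was 0.27, against 0.098 over all genes tested. CARS1 had 10.5% of all tested genes above it in log2 difference, TARS1 15.1%, SARS1 18.3%, GARS1 19.0% and WARS1 20.5%, while AARS1 had 20.6% below it. The ABCE1 libraries lay wholly above the controls for 8 synthetases and wholly below for 1, beside 50.6% and 30.9% of all tested genes. IARS1 and MARS1 lay near the median gene, at 0.0026 and -0.011 relative to it. Of all genes called with ABCE1 guides 64.8% were higher, and this share was 45.5% after each library was centred on its median gene and 49.0% after quantile normalization.

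With YAE1 guides 5 of the 10 rose (WARS1, CARS1, SARS1, TARS1 and MARS1), 0 were called lower by limma, and 5 did not pass. The background was 34.2% of genes called higher and 17.6% lower. NARS1 and EPRS1 had log2 differences below 0, and by limma 0 of the 10 were lower at an unadjusted p under 0.05, while voom and the fit without YAE1 replicate 2 each called 1 lower (EPRS1), TPM called 1 lower (NARS1) and centring called 2 lower (EPRS1 and NARS1). The median log2 difference over the 10 was 0.15, against 0.096 over all genes tested. WARS1 had 8.49% of tested genes above it, CARS1 17.9% and SARS1 20.2%, whereas TARS1 had 38.4% and MARS1 42.0%. The YAE1 libraries lay wholly above the controls for 6 synthetases and wholly below for 2, beside 49.8% and 27.9% of all tested genes. Of all genes called with YAE1 guides 66.0% were higher, against 49.1% after centring and 52.2% after quantile normalization. Both knockouts are set against the same control libraries, so noise in those libraries enters both sets of differences.

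**Figure D2:**
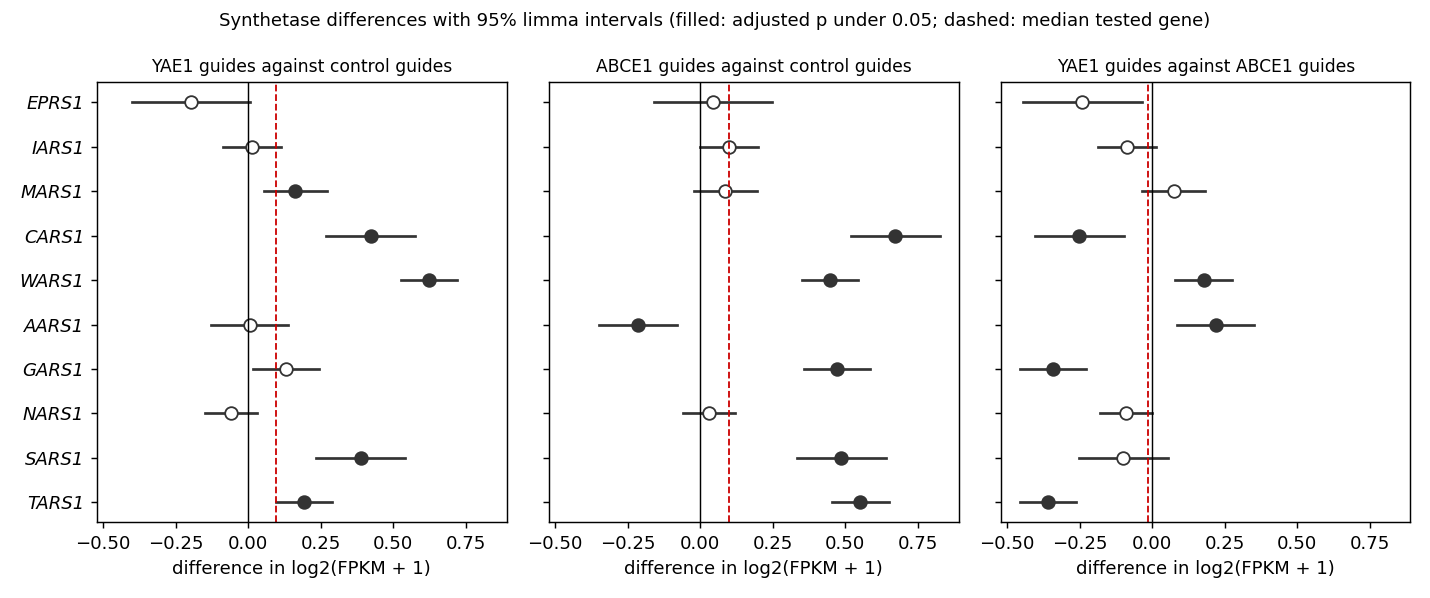
Differences in log2(FPKM + 1) of the 10 synthetases (points) with 95% limma intervals not adjusted for the number of genes (bars), for YAE1 guides against control guides, ABCE1 guides against control guides and YAE1 guides against ABCE1 guides. Filled points passed an adjusted p of 0.05 and the dashed line is the median tested gene, at 0.096, 0.098 and -0.014. TARS1 and GARS1 stand further right with ABCE1 guides, at 0.55 and 0.47, than with YAE1 guides, at 0.19 and 0.13.

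**Figure D3:**
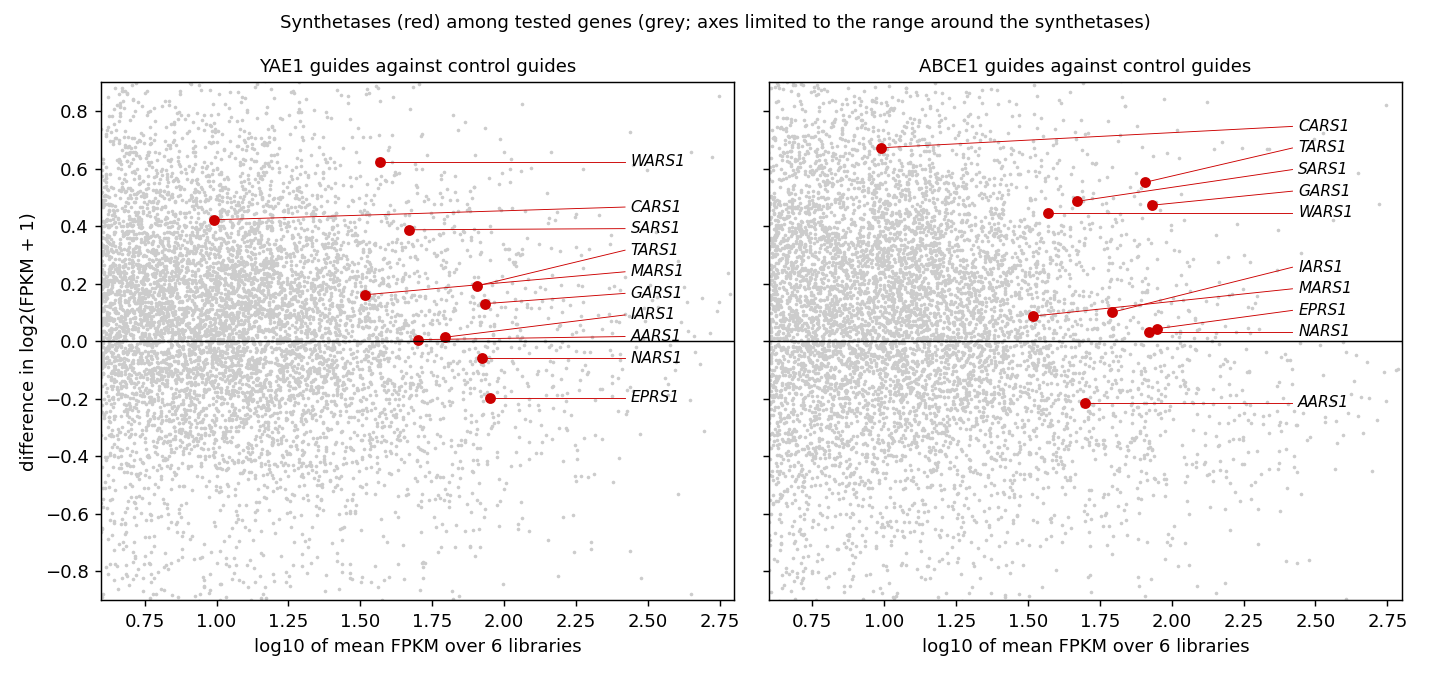
Difference in log2(FPKM + 1) from control guides (y axis) against the log10 of mean FPKM over 6 libraries (x axis) for tested genes (grey) and the 10 synthetases (red), with YAE1 guides on the left and ABCE1 guides on the right. The axes are limited to the range around the synthetases, whose differences run from -0.20 to 0.62 with YAE1 guides and from -0.21 to 0.67 with ABCE1 guides, inside the spread of other genes.

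The knockouts were then compared with each other. TARS1 was lower with YAE1 guides than with ABCE1 guides, at 76.7 ± 1.88 FPKM against 98.6 ± 0.99 FPKM (SD, n = 2 each, log2 difference -0.36 ± 0.041, limma adjusted p = 0.0028). GARS1 was lower as well, at 80.7 ± 3.19 FPKM with YAE1 guides against 102.6 ± 0.13 FPKM with ABCE1 guides (-0.34 ± 0.048, limma adjusted p = 0.0045). CARS1 was lower by a smaller margin, at 10.02 ± 0.37 FPKM with YAE1 guides against 12.1 ± 0.041 FPKM with ABCE1 guides (-0.25 ± 0.064, limma adjusted p = 0.027). In the other direction, WARS1 was higher with YAE1 guides, at 44.1 ± 0.26 FPKM against 38.9 ± 0.19 FPKM with ABCE1 guides (0.18 ± 0.040, limma adjusted p = 0.018). AARS1 was also higher with YAE1 guides, at 52.7 ± 0.74 FPKM against 45.1 ± 0.31 FPKM with ABCE1 guides (0.22 ± 0.056, limma adjusted p = 0.026).

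In this comparison 2 of the 10 synthetases were thus called higher and 3 lower, beside 15.3% and 18.7% of all tested genes. The YAE1 libraries lay wholly above the ABCE1 libraries for 3 synthetases and wholly below for 7, beside 33.4% and 36.8% of all tested genes. The median log2 difference was -0.095 over the 10 and -0.014 over all genes. For SARS1, which rose in both knockouts, the difference between them was -0.099 ± 0.064 and did not pass (95% interval -0.25 to 0.054, limma adjusted p = 0.27). NARS1, at -0.091 ± 0.037 (95% interval -0.18 to -0.0013, limma adjusted p = 0.11), and IARS1, at -0.087 ± 0.042 (limma adjusted p = 0.15), did not pass. With TPM both were called lower (limma adjusted p = 0.020 for NARS1 and 0.040 for IARS1), and NARS1 was also lower with quantile normalization (limma adjusted p = 0.040). EPRS1 (-0.24 ± 0.085, limma adjusted p = 0.070) did not pass either and had the largest error of the 10. EPRS1 passed with voom (limma adjusted p = 0.012), under a stricter filter of 5 FPKM (0.041) and with TPM (-0.30, limma adjusted p = 0.044). Its difference was -0.37 without YAE1 replicate 2 and -0.11 without YAE1 replicate 1. The calls for CARS1, WARS1 and AARS1 were each lost when ABCE1 replicate 1 was left out (limma adjusted p = 0.10, 0.085 and 0.11) and when ABCE1 replicate 2 was left out (0.11, 0.093 and 0.098). CARS1 was also lost without YAE1 replicate 2 (0.085), with quantile normalization (0.068) and with no filter (0.088), and AARS1 with no filter (0.097), without YAE1 replicate 1 (0.080) and without YAE1 replicate 2 (0.053). TARS1 and GARS1 kept their calls under all 16 alternatives tried. Of all genes called 45.1% were higher with YAE1 guides, against 56.0% after centring and 31.2% after rescaling every library to the same sum (TPM), under which WARS1 (0.12, limma adjusted p = 0.065) and AARS1 (0.16, limma adjusted p = 0.062) did not pass.

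The rank order of the synthetases by FPKM was not the same in the 3 groups. The order within a group also depends on the gene-model lengths used, which the spread between replicates does not measure. With control guides EPRS1 was the most abundant (92.0 ± 5.07 FPKM), followed by NARS1 (84.2 ± 0.96), GARS1 (73.7 ± 3.08), TARS1 (66.9 ± 1.55) and IARS1 (60.5 ± 1.45). AARS1 (52.5 ± 3.91), SARS1 (37.7 ± 2.56), MARS1 (31.0 ± 0.61), WARS1 (28.3 ± 0.65) and CARS1 (7.23 ± 0.58) followed (SD, n = 2 each), and in the controls no neighbours in this order overlapped. With ABCE1 guides GARS1 and TARS1 stood above EPRS1, SARS1 above AARS1, and WARS1 above MARS1, again with no overlap between neighbours. With YAE1 guides NARS1, GARS1, EPRS1 and TARS1 stood at 80.8 ± 0.31, 80.7 ± 3.19, 80.4 ± 10.03 and 76.7 ± 1.88 FPKM, and each overlapped the next. WARS1 stood above MARS1 in both knockouts, whereas MARS1 stood above WARS1 in the controls. CARS1 remained the least abundant in every group, and the next gene up had 3.47 times its level with YAE1 guides, 2.72 times with ABCE1 guides and 3.91 times with control guides.

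The FPKM of the 10 genes summed to 571 and 571 with YAE1 guides, 626 and 632 with ABCE1 guides, and 520 and 548 with control guides. The groups did not overlap, and the ABCE1 libraries were highest. As a share of the summed FPKM of all genes, which itself differed between libraries, the 10 held 0.214% and 0.220% with YAE1 guides, 0.249% and 0.251% with ABCE1 guides, and 0.205% and 0.216% with control guides. By share, the YAE1 libraries overlapped the controls. The 3 genes of the complex summed to 169 and 183 FPKM with YAE1 guides, 190 and 195 FPKM with ABCE1 guides, and 178 and 188 FPKM with control guides. CARS1 and WARS1 together gave 54.6 and 53.6 FPKM with YAE1 guides, 51.1 and 50.9 FPKM with ABCE1 guides, and 34.6 and 36.4 FPKM with control guides. The 5 free class II genes gave 347 and 334 FPKM with YAE1 guides, 385 and 386 FPKM with ABCE1 guides, and 307 and 324 FPKM with control guides. No test was run on these sums.

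The scale of the values mattered for the genes with small differences. Centring moved the median tested gene by -0.14 with ABCE1 guides and by -0.097 with YAE1 guides, and quantile normalization moved it by -0.12 with ABCE1 guides and by -0.092 with YAE1 guides. Relative to the median gene on the authors' scale, CARS1, TARS1, SARS1, GARS1 and WARS1 lay at 0.57, 0.45, 0.39, 0.37 and 0.35 with ABCE1 guides, and all 5 were called higher under each of the 16 alternatives. With YAE1 guides WARS1, CARS1 and SARS1 lay at 0.53, 0.33 and 0.29 relative to the median gene and were called higher under each of the 16, whereas TARS1 and MARS1 lay at 0.097 and 0.066. After centring, EPRS1, IARS1, MARS1 and NARS1 with ABCE1 guides turned below 0, to -0.095, -0.038, -0.051 and -0.11, and none of these passed the test. After centring, EPRS1 (-0.29, limma adjusted p = 0.023) and NARS1 (-0.16, limma adjusted p = 0.017) were called lower with YAE1 guides, and IARS1 and AARS1 turned to -0.083 and -0.092 without passing.

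**Figure D4:**
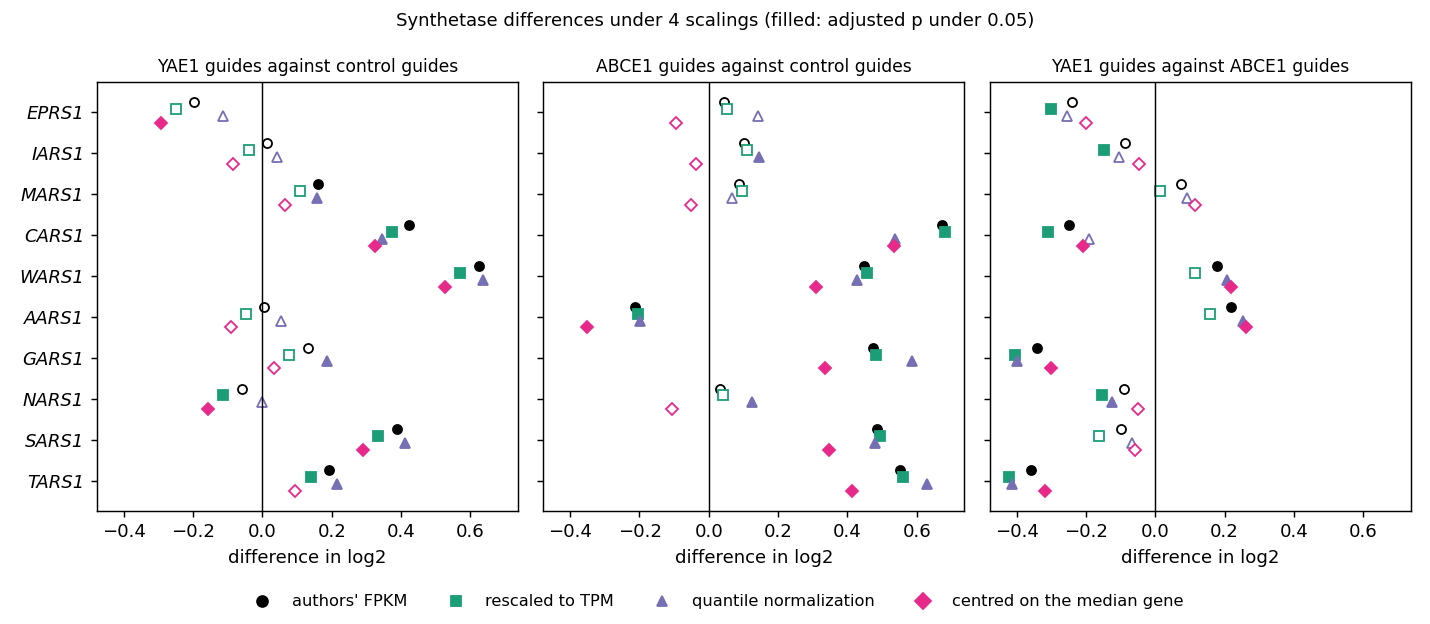
Log2 differences of the 10 synthetases (x axis) under the authors' FPKM scale, rescaling to TPM, quantile normalization and centring on the median gene, for the 3 comparisons. Filled symbols passed an adjusted p of 0.05. CARS1, WARS1 and SARS1 stay right of 0 and filled in both knockouts under all 4 scalings, while EPRS1, IARS1, MARS1 and NARS1 with ABCE1 guides fall on either side of 0.

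Beyond the 10 genes, 2 identifiers of 7037 with a mean of at least 5 FPKM had the profile over the 6 libraries nearest to the median profile of the synthetases. Likeness was the Euclidean distance between log2(FPKM + 1) values taken relative to each gene's own control mean. By the same measure the synthetases themselves lay further from the median profile, from 0.27 for MARS1 to 0.72 for AARS1. Closeness to it therefore does not mean closeness to any synthetase. ENSG00000168994, at a distance of 0.053, had 10.5 and 10.1 FPKM with YAE1 guides, 11.5 and 11.3 FPKM with ABCE1 guides, and 8.75 and 9.56 FPKM with control guides. ENSG00000101856, at 0.058, had 48.6 and 47.8 FPKM with YAE1 guides, 52.6 and 51.8 FPKM with ABCE1 guides, and 42.6 and 43.3 FPKM with control guides.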

How the data were processed

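RNA from 6 libraries (1 µg input each) was read as strand-specific 150 bp pairs, per the labels. The authors deposited FPKM per gene and library; GRCh37 is named in the submitters' processing notes, while no aligner, counter or annotation release is given in the sources used here. The organism field reads Mus musculus, but the cell line is human.

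The 10 names come from the definition of the gene set. The reference tables were for mouse and matched 0 of 62492 identifiers, so lists of other synthetases, ATF4 targets and markers were not used here, nor positions and sequences. Members, lists and tests were chosen with earlier results of these data known. All 10 genes were named, plus the 2 nearest profiles.

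FPKM values are multiples of a step, from which fragments (in steps of 0.5, tolerance 2e-05 steps) were recovered for 38267 of 38269 genes above 0. They summed to at least 99.4% of the totals. A gene's 6 fragment numbers may share an unknown factor, which leaves differences in FPKM untouched. The smallest numbers that fit were kept, so such a factor would alter that gene's fragment numbers, counting errors, chi-square and voom results.

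The 12578 genes averaging 1 FPKM or more were tested on log2(FPKM + 1), which understates changes of low genes, with limma 3.58.1 in R 4.3.3 (all 6 libraries in 1 fit, a mean per group, trend, Benjamini-Hochberg adjustment over all 12578, threshold 0.05). An exact permutation test of 2 against 2 libraries cannot go below p = 0.333 and was not used. Intervals are unadjusted 95% limma intervals. Alternatives were 2 pseudocounts, 2 filters, centring, quantile normalization, TPM (chosen after seeing the data), the 4 libraries compared, a replicate block, voom on fragments, and each library left out.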

Additional observations from a re-analysis of the deposited data

Results flagged for a closer look

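For 5 synthetases the difference between the effects of YAE1 and ABCE1 guides passed its own test, 2 higher and 3 lower with YAE1 guides, beside 15.3% and 18.7% of all tested genes. The effect with YAE1 guides minus that with ABCE1 guides was -0.36 on the log2 scale for TARS1 (limma adjusted p = 0.0028), -0.34 for GARS1 (limma adjusted p = 0.0045) and -0.25 for CARS1 (limma adjusted p = 0.027). It was 0.22 for AARS1 (limma adjusted p = 0.026) and 0.18 for WARS1 (limma adjusted p = 0.018). The calls for CARS1, WARS1 and AARS1 were lost without either ABCE1 library (limma adjusted p = 0.085 to 0.11), and those for TARS1 and GARS1 held under all 16 alternatives. Groups of 2 libraries are too small to look for an outlying sample.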

How the results depend on the processing

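Over 160 combinations of gene and alternative per comparison, direction and side of the threshold held in 148 with ABCE1 guides, 134 with YAE1 guides and 138 between the knockouts. The cause of the results that did not hold was not tested. The log2 difference cannot change with the filters, the 4 libraries compared, the replicate block, or a left-out library of the group not compared. Agreement in direction was thus fixed in advance for these alternatives, and only the p-value could move. With ABCE1 guides against control, the count of synthetases called lower was 0 with no filter and 0 to 1 with a library left out. The median log2 difference was 0.14 after centring. Over all genes, 2845 were higher with a mean of at least 5 FPKM (fewer genes tested) and 3915 lower after centring. EPRS1 turned to -0.095 after centring and ranged from -0.012 (without control replicate 1) to 0.099 with a library left out, and IARS1, MARS1 and NARS1 turned to -0.038, -0.051 and -0.11 after centring.

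With YAE1 guides against control, 3 synthetases were called higher and 2 lower after centring, 3 to 6 higher and 0 to 1 lower with a library left out, and 1 lower each with voom and with TPM. The median was 0.049 after centring and 0.093 with TPM, and 2621 genes were higher with a mean of at least 5 FPKM. IARS1 turned to -0.083 after centring and -0.039 with TPM, and ranged from -0.010 to 0.038 with a library left out, below 0 without YAE1 replicate 2 and without control replicate 1. AARS1 turned to -0.092 after centring and -0.048 with TPM, and ranged from -0.069 to 0.080, below 0 without YAE1 replicate 1 and without control replicate 1.

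Between the knockouts, 1 synthetase was higher with no filter, 0 with TPM, and 0 to 2 with a library left out, and 6 were lower with TPM, under which 1383 of all genes were higher and 3051 lower. The median was -0.054 after centring and -0.16 with TPM. Over all genes 907 were higher and 1184 lower with no filter, and 833 to 1634 higher and 948 to 2092 lower with a library left out, least without ABCE1 replicate 1.

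The labels do not say that equal replicate numbers mark a shared batch, and deviations of same-numbered libraries correlated at -0.053 to -0.0093. With the replicate number as a block, 1 synthetase (EPRS1, -0.20, limma adjusted p = 0.036) was lower with YAE1 guides, and EPRS1 also passed between the knockouts (-0.24, limma adjusted p = 0.031).

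A group that keeps 1 library is assumed to vary like the others. Counting error was at most 2.82% per synthetase and library. Gaps between replicates ran from 0.022% of their mean (SARS1 with ABCE1 guides) to 17.6% (EPRS1 with YAE1 guides). A gap carries the counting error of 2 libraries, so it is not the same measure as the error of 1 library.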
